A study of Homo sapiens with 3 samples.

Results

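Replication-dependent histone genes encode the linker histone H1 and the core histones H2A, H2B, H3 and H4 that package newly made DNA. They are transcribed mainly in S phase, lie together in gene clusters that are transcribed within the histone locus body, and give short mRNAs without introns. Their mRNAs end in a conserved stem-loop bound by SLBP (stem-loop binding protein) instead of a poly(A) tail, and they decay quickly when DNA synthesis stops, so their level is known as a readout of S phase and of the histone mRNA processing machinery.

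The genes described here are the clustered histone genes of the short arm of chromosome 6 (cluster HIST1) and of 2 places on the long arm of chromosome 1 (clusters HIST2 and HIST3), chosen by their older symbols beginning HIST1H, HIST2H or HIST3H or by the current symbols of the same genes, with pseudogenes left out. Of the 58037 genes in the count table, 65 met this rule: 53 in HIST1, 9 in HIST2 and 3 in HIST3. By class they were 6 H1, 15 H2A, 18 H2B, 12 H3 and 14 H4 genes. A further 4 genes of the clusters, H2AC18, H2AC19, H3C2 and H3C3, were not matched to an identifier of the table and were not analysed here.

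RWPE1, an immortalized line of normal human prostate epithelial cells, was profiled in 3 bulk libraries, 1 for each genotype in the labels: OLFM4-wild type, OLFM4-Knock out and OLFM4-active. OLFM4 encodes the secreted glycoprotein olfactomedin 4, and the deposited design sets both the knockout and the OLFM4-active cells against the wild cells. Per the study's methods, RWPE1 cells carrying wild OLFM4 received CRISPR plasmids against OLFM4, double nickase plasmids for the knockout reporter cells and activation plasmids for the wild reporter cells, and were selected with puromycin, grown in prostate epithelial medium and sorted for GFP before RNA was taken. The methods do not describe cells named OLFM4-active separately, and the sources do not say which of the wild and active-labelled libraries came from cells given the activation plasmids. The groups therefore share the parent line and the culture, and differences between cell lines made separately, or between cultures, cannot be told apart from differences between genotypes.

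The libraries are called wild, knockout and active-labelled below, and values given in a row of 3 follow that order. They held 16309906, 58837147 and 23224216 counts. OLFM4 itself had 214, 131 and 16 counts, or 11.8, 2.55 and 0.670 CPM, which are counts set to a common library size scaled by TMM. It was lowest in the active-labelled library, which goes against the label of that library. Whether the labels of the knockout and active-labelled libraries were exchanged was not tested, and the names used here follow the labels. The basal markers KRT5, KRT14, KRT15, TP63 and ITGA6 and the general epithelial markers CDH1 and EPCAM were present in all libraries. Together these 7 genes lay higher in the knockout library (median log2 fold change 0.921, all 7 above 0) and, for 6 of 7, in the active-labelled library (0.353) than in the wild one. By contrast, COL3A1 (fibroblasts), CDH5 (endothelium) and CD3E (T cells) had 0 counts in each. Of the remaining markers of fibroblasts, endothelium and leukocytes, PECAM1, VWF, PTPRC and DCN averaged under 1 CPM. COL1A1 (30.2, 25.8 and 21.8 CPM) and CD68 (31.4, 24.4 and 19.8 CPM) were highest in the wild library, and COL1A2 (50, 268 and 24 counts, with log2 fold changes of 0.91 and -1.44 against the wild library) in the knockout library. The part of these markers in the results was not tested. With 1 library for each condition no test across conditions was possible, so all intervals are 95% Clopper-Pearson intervals, which cover counting error only, and each comparison is between libraries.

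The stem-loop is the feature by which these mRNAs are recognised, so its sequence is shown first. It is 16 bases long and was searched for in the 150 bases after the stop codon of each gene in GRCh38. It was found in 62 of the 65 genes, 22 to 62 bases after the stop codon, and in 10 of 19981 other protein-coding genes (0.05%). These include the unclustered histone genes H2AX and H4C16, the unmatched clustered genes H2AC18, H2AC19, H3C2 and H3C3, and H3-7, which was left out as a pseudogene. The rest were BTBD10, CYP8B1 and SH2D6. The stem-loop was not found in this window for H3C6, H2BC10 and H4C13. There were 7 distinct sequences, of which the commonest was shared by 36 genes, the next by 10 genes, and 2 further ones by 9 and 4 genes. The sites of 5 genes that recur below are printed 5′ to 3′ as DNA on the gene's strand, with the stem-loop in capitals and 5 bases of flank on each side in lower case:
H1-4 (chr6:26157095-26157110, plus strand): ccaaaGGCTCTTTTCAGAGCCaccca
H2BC4 (chr6:26123472-26123487, minus strand): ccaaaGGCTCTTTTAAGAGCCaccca
H4C3 (chr6:26104317-26104332, plus strand): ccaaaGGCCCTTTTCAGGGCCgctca
H4C6 (chr6:26240778-26240793, plus strand): taaaaGGCCCTTTTCAGGGCCacctc
H4C9 (chr6:27139654-27139669, plus strand): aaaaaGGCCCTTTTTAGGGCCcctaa
The first 2 forms differ only in the loop. The forms of H4C3, H4C6 and H4C9 carry a stem richer in G and C, with CCC and GGG facing each other, which was found in all 13 H4 genes with a stem-loop in the window and in 0 of the 49 such genes of the other classes.

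Promoter windows of 300 bases, 250 before and 50 after the start, were taken from RefSeq (GRCh38.p14) and matched 60 of the 65 genes by symbol. Histone classes are known to use different promoter elements, so 5 short motifs were searched on both strands: the TATA box (TATAAA), the CCAAT box (CCAAT), the octamer of H2B promoters that is read by POU2F1 (ATTTGCAT), the core of the H1 box (AAACACA) and the H4 element read by HINFP (GGTCCG). The H4 element was in 11 of 12 H4 windows against 13.4% of 27305 genes with a window, and in all 11 it stood on the coding strand 44 to 47 bases before the start. The octamer was in 14 of 18 H2B windows and 11 of 14 H2A windows against 2.19% of all genes. Neighbouring H2A and H2B genes share promoter DNA, so some of these windows overlap. The H1 box core was in all 6 H1 windows against 6.94% of all genes. In H1-2, H1-3, H1-4, H1-5 and H1-6 it stood on the coding strand 105 to 119 bases before the start, and in H1-1 it was found only on the other strand, 183 bases before the start. CCAAT was in every H1, H2A, H2B and H3 window matched but in 3 of 12 H4 windows, and a TATAAA was in 40 of the 60 windows (66.7%) against 3819 of the 27305. A match of letters is a description and does not show that a factor binds there.

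**Figure D1:**
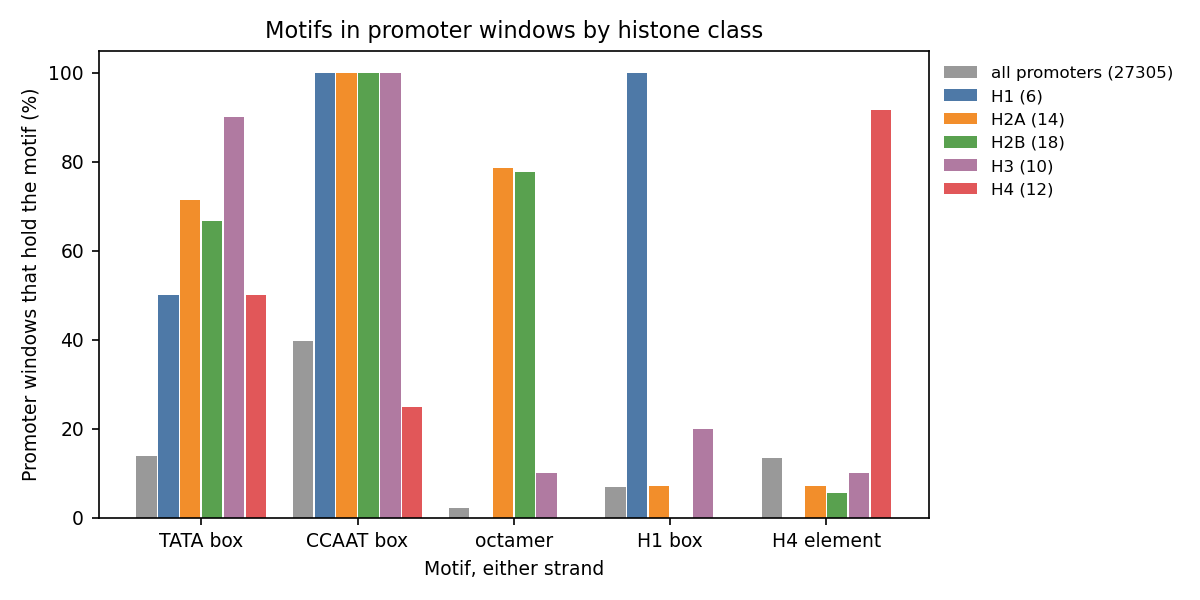
Share of promoter windows (y axis, %) that hold each of 5 motifs on either strand, for all genes with a window (grey) and for each histone class, with the number of windows in brackets. The octamer stands out in H2A and H2B (78.6% and 77.8%), the H1 box core in H1 (all 6 windows) and the H4 element in H4 (91.7%).

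The 150 bases before the start are printed for 4 genes with opposite or extreme values below, with motif letters in capitals. They are H4C6, the gene with the lowest values against the wild library, H4C2 and H4C9, the H4 genes with the highest values, and H2BC21, whose letters hold an H4 element overlapping a CCAAT box:
H4C6 (chr6:26240243-26240392, plus strand): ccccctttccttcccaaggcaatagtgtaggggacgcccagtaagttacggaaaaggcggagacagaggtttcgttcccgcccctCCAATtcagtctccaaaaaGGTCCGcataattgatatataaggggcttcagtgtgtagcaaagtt
H4C2 (chr6:26027284-26027433, minus strand): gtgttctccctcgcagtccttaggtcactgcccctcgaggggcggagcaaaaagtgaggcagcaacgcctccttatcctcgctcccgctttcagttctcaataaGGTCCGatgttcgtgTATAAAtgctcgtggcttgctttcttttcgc
H4C9 (chr6:27139132-27139281, plus strand): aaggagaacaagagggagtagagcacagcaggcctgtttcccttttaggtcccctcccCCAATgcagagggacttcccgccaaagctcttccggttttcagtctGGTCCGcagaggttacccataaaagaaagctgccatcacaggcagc
H2BC21 (chr1:149886683-149886832, minus strand): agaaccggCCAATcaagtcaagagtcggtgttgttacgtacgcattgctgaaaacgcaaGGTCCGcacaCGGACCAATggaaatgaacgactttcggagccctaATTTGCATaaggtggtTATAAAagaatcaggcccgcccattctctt
The H4 element lies 46 bases before the start in H4C6, H4C2 and H4C9 alike, and the octamer and TATAAA of H2BC21 lie 46 and 30 bases before its start.

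The histone genes were abundantly counted, since the libraries were made from total RNA without selection of poly(A) tails. Together they took 150419, 388528 and 134169 counts. These are 0.922% of the wild library (0.918 to 0.927), 0.660% of the knockout library (0.658 to 0.662) and 0.578% of the active-labelled one (0.575 to 0.581). Averaged over libraries, 61 of the 65 genes reached 1 CPM, 57 reached 10 CPM and 32 reached 100 CPM. The 4 genes under 1 CPM were H2AC1, H2BC1, H3-4 and H4C7, of which the first 3 are known as testis genes, with at most 4, 13 and 3 counts per gene. A floor set at 3 counts equals 0.165, 0.0584 and 0.126 CPM, and no fold change is given for these genes.

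Levels were compared between genes per kilobase of annotated exon. On this scale the linker histone H1-4 led in every library, with 884, 684 and 484 CPM per kilobase. Within classes the order on this scale was steady at the top: H2BC12 and H2BC8 led the H2B genes and H4C3 the H4 genes in all 3 libraries, while H2AC11 led H2A in 2 libraries and H2AC8 in the knockout library, and H3C7 led H3 in 2 libraries and H3C8 in the active-labelled library. In the wild library the class medians were 466 CPM per kilobase for H1, 272 for H2A, 166 for H2B, 142 for H3 and 76.5 for H4. Genes with long annotated transcripts are set low on this scale. They include H2BC4 (2881 exon bases, 460 in its shortest coding transcript), H2AC6 (1668 and 519) and H3C12 (858 and 512). The lead of H1-4 and the order within H2A, H2B and H3 therefore depend on the length used. With the shortest coding transcript as the length, the medians became 298 for H2A, 294 for H2B, 195 for H3 and 121 for H4, so the gap between H2A and H2B closed. The lowest H1 gene was H1-6, known as a testis linker histone, with 36, 77 and 27 counts.

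**Figure D2:**
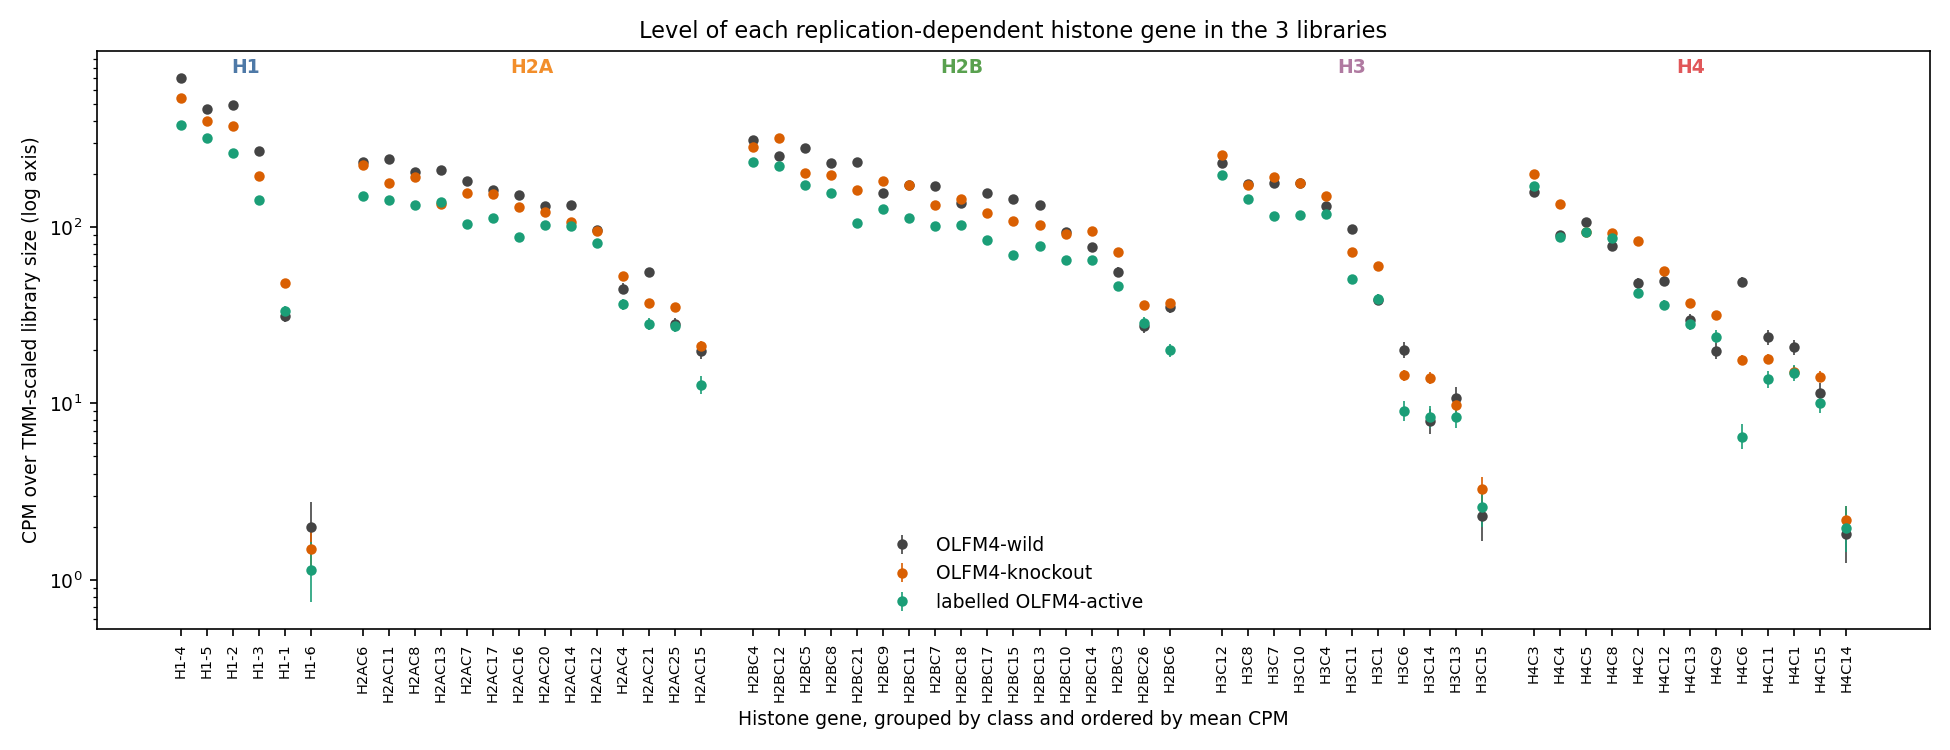
Level of each of 61 histone genes in CPM over TMM-scaled library size (log axis), by class, with 95% counting intervals as bars. Most genes are lowest in the active-labelled library, and H4C6 spans 48.6 to 6.49 CPM.

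The authors counted uniquely mapped pairs, so pairs from repeated histone sequence may be lost. Uniqueness was looked at in single windows of the read length, which does not cover the span of a pair. In GRCh38, every window of 75 bases, the read length, occurred once in the genome for 40 of the 65 genes. In 10 genes under 50% of windows occurred once. H4C14 and H4C15, a near-identical pair, and H3C14 and H3C15, another pair, had no window that occurs once, so their counts are uncertain. H4C12 (8.0%), H4C11 (8.6%), H2AC14 (35.8%), H3C13 (37.0%), H2AC13 (38.7%) and H2BC18 (39.2%) had few. Of the genes named most below, H3C12 shares 40.3% of its exon bases with H2AC17 on the same strand, and an unnamed locus covers 96.6% of H3C4 and 85.3% of H2AC7, so reads there may have been split or dropped.

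The comparison of the knockout with the wild library showed no common direction. Of the 61 genes, 34 were lower (55.7%, against 43.3% of all genes) and 27 higher in the knockout library, with a median log2 fold change of -0.022 and quartiles of -0.38 and 0.25, beside a median of 0.097 over all 16600 genes tested. No histone gene lay above a log2 fold change of 1, where 5.77% of all genes lay, and only H4C6 lay below -1, where 7.56% of all genes lay. The counting interval lay wholly below 0 for 28 genes, wholly above 0 for 23 and held 0 for 10. The spread among the genes was thus wider than counting error. How many of all genes have such intervals was not counted, so these numbers are not read as particular to histone genes. The size of the median and the count below 0 depend on the scaling: with library totals in place of TMM every value is lower by 0.353, the histone median becomes -0.38 and that of all genes -0.256, and 52 of 61 histone genes lie below 0, as do 67.5% of all genes. Relative to the median of all genes, the histone median was -0.119 on either scale.

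The active-labelled library had lower histone levels than the wild library. There, 52 of 61 genes (85.2%) lay below 0 against 46.1% of all genes, with a median log2 fold change of -0.485 and quartiles of -0.78 and -0.19, beside 0.047 over all genes. The 4 genes below -1 were H4C6, H3C6, H2BC21 and H2BC15 (6.73% of all genes lay below -1), and 0 lay above 1 (3.78% of all genes). This count of 4 among 61 is near the share of all genes, so nothing is read from it. As annotated, H3C6, H2BC21 and H2BC15 reach 1911, 1804 and 16670 bases past the last coding base. The part of such longer transcripts in their counts was not tested. The interval lay wholly below 0 for 48 genes and wholly above 0 for 3, which were H4C3, H4C8 and H4C9. The share of all genes with such intervals was not counted here either. Under library totals the values are lower by 0.115, and 57 of 61 genes lay below 0, against 55.9% of all genes. The histone median was -0.532 relative to the median of all genes.

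Set directly against each other, the knockout library was higher than the active-labelled library for 59 of 61 histone genes (96.7%, against 56.7% of all genes), with a median log2 fold change of 0.480 and quartiles of 0.34 and 0.59, beside 0.079 over all genes. The 2 exceptions, H2AC13 (-0.039) and H4C5 (-0.004), had intervals that held 0. Only H4C6 lay above 1 (2.95% of all genes did) and 0 genes lay below -1 (3.39% of all genes). With library totals 51 of 61 genes were higher in the knockout library, where 63.4% of all genes lay below 0, and the histone median was 0.242. The 3 comparisons share libraries and are not independent. Of the 61 genes, 50 were lowest in the active-labelled library, against 30.3% of all genes. In bulk RNA, fewer cells in S phase and less histone mRNA per cell cannot be told apart.

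**Figure D3:**
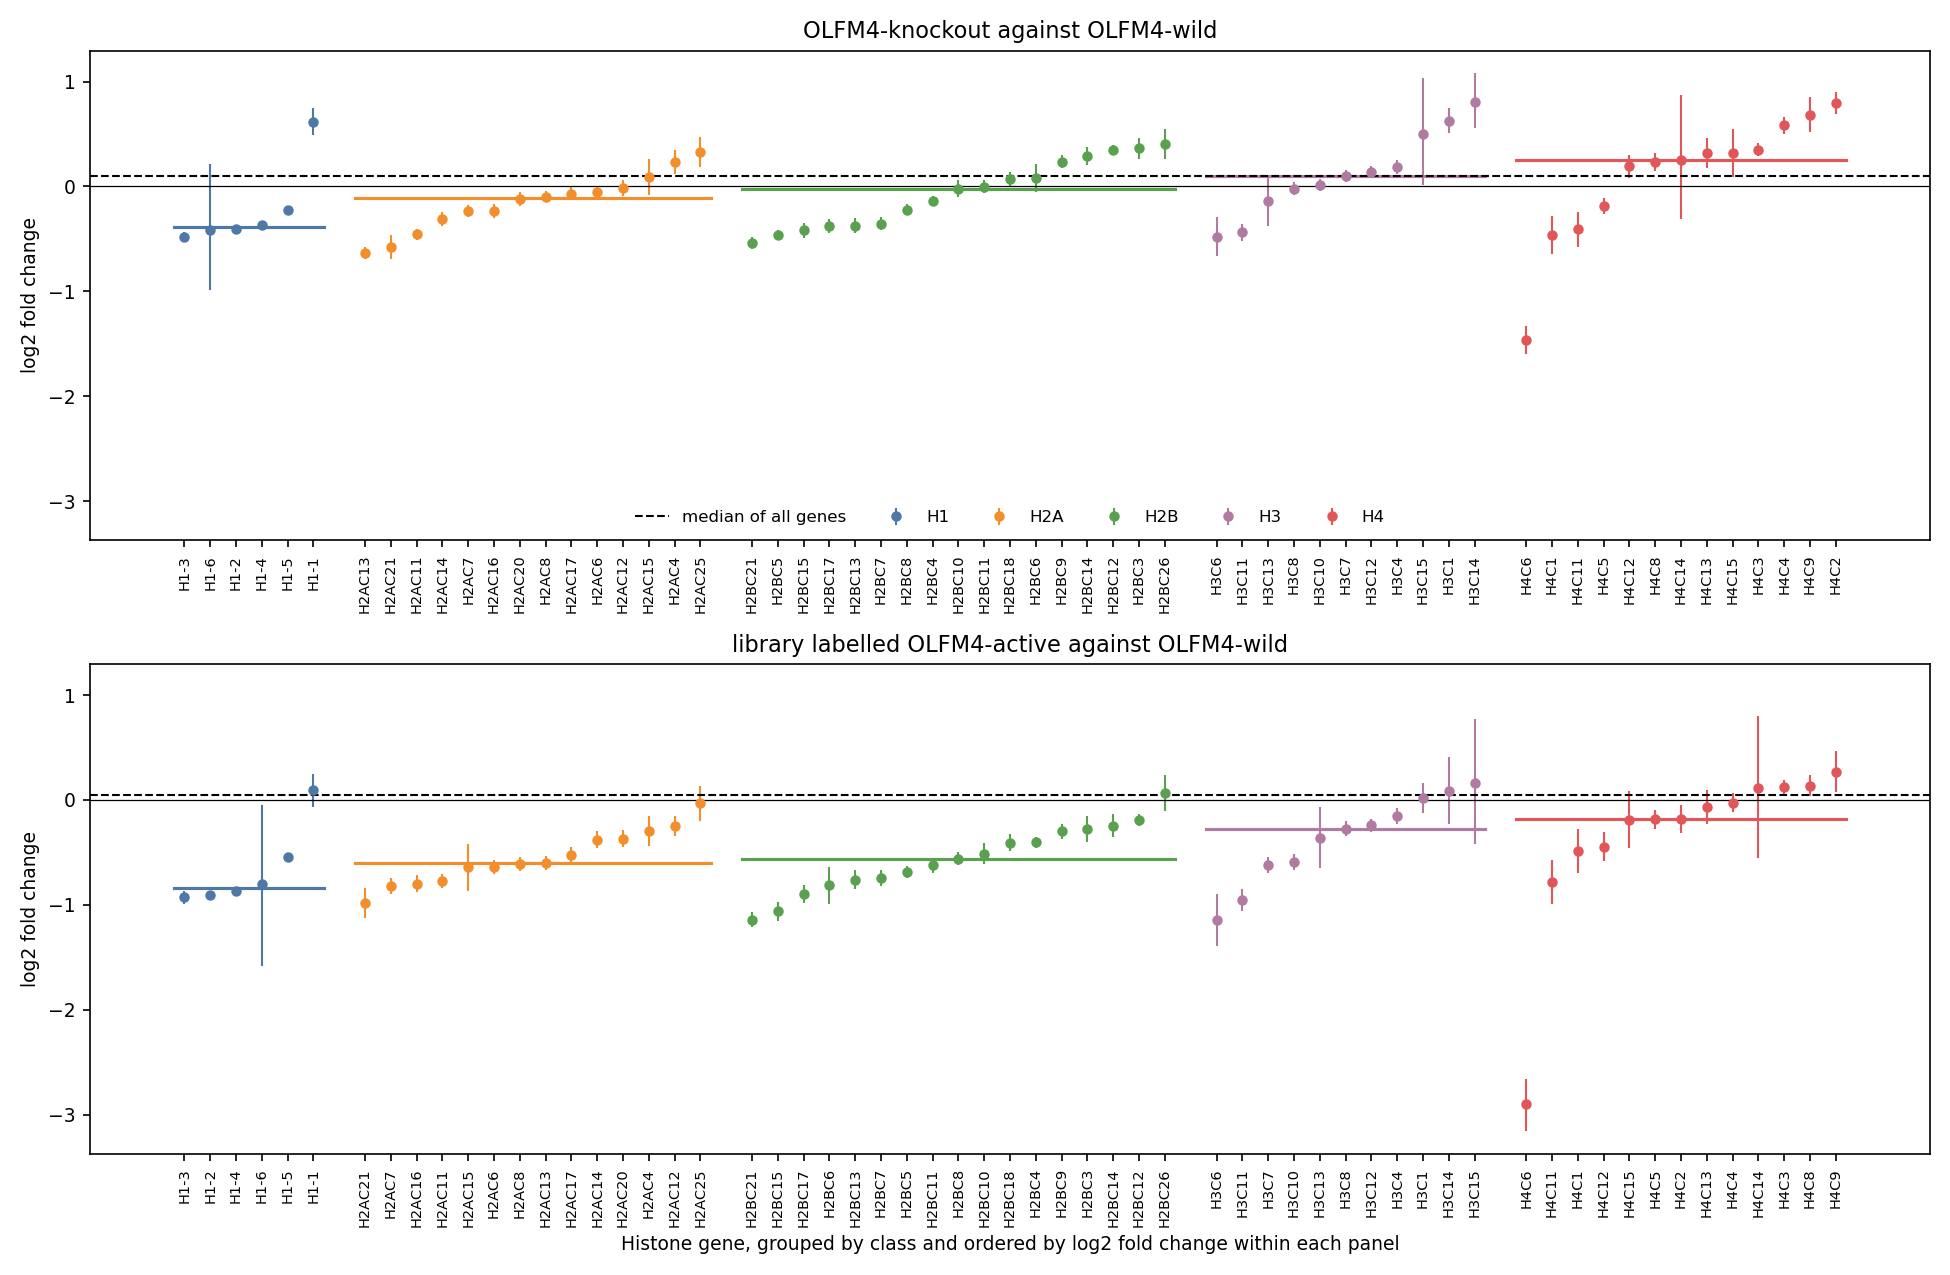
Log2 fold change (y axis) of each of 61 histone genes against the wild library, for the knockout library (top) and the active-labelled library (bottom), with 95% counting intervals, class medians as coloured lines and the median of all genes dashed. Values straddle 0 in the top panel (34 below, 27 above) and lie mostly below it in the bottom one (52 below), and H4C6 lies apart in both.

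The classes differed in how far they lay from the wild library. Class medians in the knockout library ran from -0.386 for H1 through -0.107 for H2A, -0.022 for H2B and 0.103 for H3 to 0.249 for H4, and those for H3 and H4 turn to -0.249 and -0.103 with library totals. In the active-labelled library the same order held, from -0.837 for H1 through -0.604 for H2A, -0.562 for H2B and -0.273 for H3 to -0.183 for H4, all below 0 with library totals as well. These comparisons share the wild library, so the agreement of the order is not independent.

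Within a library, the share of histone counts held by each class needs no scaling between libraries. H1 genes held 23.7% (23.5 to 23.9), 20.5% (20.4 to 20.7) and 20.3% (20.1 to 20.5) of the histone counts. H4 genes held 8.29% (8.15 to 8.43), 10.5% (10.4 to 10.6) and 11.0% (10.8 to 11.2). H3 genes held 12.9%, 14.8% and 14.4%, whereas H2B genes held 32.2%, 32.5% and 31.9%. The mRNA pool of the wild library thus held relatively more H1 and less H3 and H4 than both other libraries, by more than counting error.

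**Figure D4:**
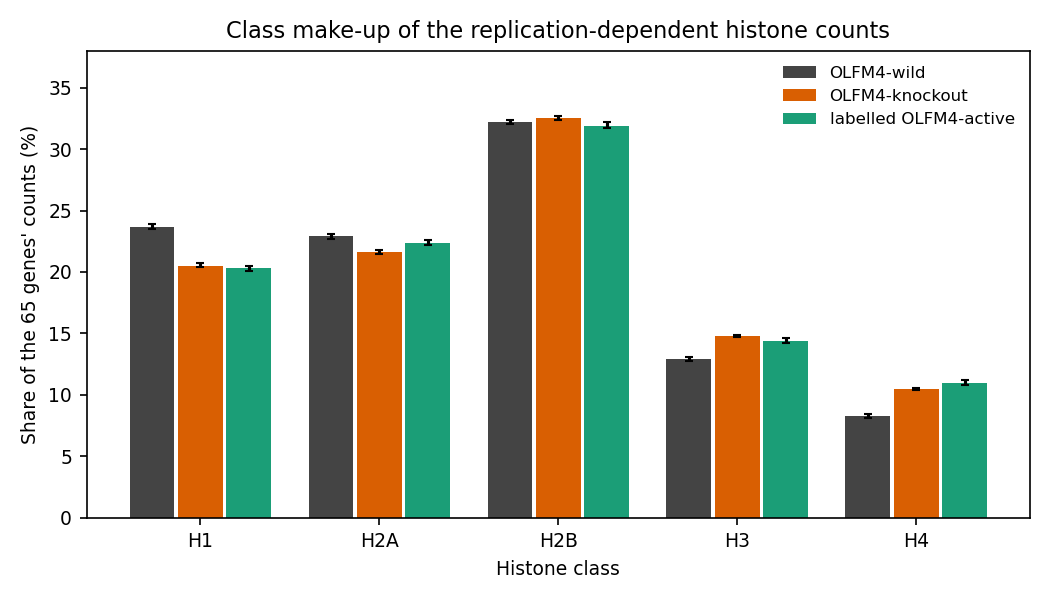
Share of the counts of all 65 histone genes (y axis, %) held by each class in the 3 libraries, with 95% counting intervals. H1 takes 23.7% in the wild library against 20.5% and 20.3% in the others, and H4 takes 8.29% against 10.5% and 11.0%.

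Linker histones bind the DNA between nucleosomes and compact chromatin. H1-4 (chromosome 6 from 26156329 to 26157115, plus strand) had 12644, 27655 and 9094 counts, or 696, 539 and 381 CPM. H1-2 had 494, 374 and 263 CPM, and H1-5 had 465, 398 and 319 CPM. All 3 were highest in the wild library and lowest in the active-labelled library, with no overlap of counting intervals. Of all genes, 30.6% were highest in the wild library and 30.3% were lowest in the active-labelled library. How many of all genes had intervals without overlap was not counted. The log2 fold changes of H1-4 were -0.37 (-0.40 to -0.34) in the knockout library and -0.87 (-0.91 to -0.83) in the active-labelled library. Those of H1-2 were -0.40 and -0.91, and those of H1-5 were -0.23 and -0.55. H1-3 was of the same kind with -0.48 and -0.93. H1-1 went the other way, with 31.4, 48.2 and 33.4 CPM. Its log2 fold changes were 0.62 (0.49 to 0.75) in the knockout library and 0.092 in the active-labelled library, where the interval held 0.

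H2A genes lay low as a group. In the active-labelled library all 14 measured H2A genes were below 0, against 46.1% of all genes. In the knockout library 11 of 14 were, against 43.3% of all genes, or all 14 with library totals, against 67.5%. H2AC6, one of the genes known to be polyadenylated also, had 4228, 11520 and 3564 counts, or 233, 224 and 149 CPM. H2AC11 had 244, 178 and 143 CPM, and H2AC8 had 204, 191 and 134 CPM. The log2 fold changes in the active-labelled library were -0.64 for H2AC6, -0.78 for H2AC11 and -0.61 for H2AC8. In the knockout library they were -0.052, -0.46 and -0.096, so H2AC11 was lower there by more than the other two. H2AC21, of cluster HIST2, was the H2A gene lowest against the wild library in the active-labelled library, with 55.4, 37.1 and 28.1 CPM and log2 fold changes of -0.58 and -0.98.

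H2B genes were the most counted class. H2BC4 had 5643, 14528 and 5602 counts, or 311, 283 and 235 CPM, and H2BC5 had 280, 203 and 174 CPM. H2BC12 differed in having its highest level in the knockout library, with 252, 320 and 221 CPM and a log2 fold change of 0.35 (0.30 to 0.39), which is near 0 with library totals. H2BC21 (chromosome 1 from 149884459 to 149886682, minus strand) had 4253, 8266 and 2530 counts, or 234, 161 and 106 CPM. Its log2 fold changes were -0.54 (-0.59 to -0.49) in the knockout library and -1.14 (-1.22 to -1.07) in the active-labelled library, 2.21-fold lower. H2BC15 (chromosome 6 from 27838545 to 27855709, plus strand) had 144, 108 and 69.1 CPM and log2 fold changes of -0.42 and -1.06 (-1.15 to -0.97), and the latter interval holds -1. In H2B, 16 of 17 genes lay below 0 in the active-labelled library (46.1% of all genes did) and 10 of 17 in the knockout library (43.3%).

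H3 genes were more mixed. H3C12 had 4209, 13109 and 4680 counts, or 232, 255 and 196 CPM, H3C8 had 175, 172 and 144 CPM and H3C7 had 178, 191 and 115 CPM. All 3 were lowest in the active-labelled library, with log2 fold changes of -0.24, -0.27 and -0.62 in that order. In the knockout library they were 0.14, -0.021 and 0.10, and each of the 3 turns or stays below 0 with library totals. H3C6 (chromosome 6 from 26224199 to 26227473, plus strand) had 365, 741 and 217 counts, or 20.1, 14.4 and 9.08 CPM. Its log2 fold changes were -0.48 in the knockout library and -1.14 (-1.39 to -0.90) in the active-labelled library. H3C1, at 38.8, 59.9 and 39.3 CPM, was higher in the knockout library by 0.63 on the log2 scale (0.51 to 0.75).

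H4 genes held both ends of the range. H4C3, the most abundant, had 2854, 10291 and 4088 counts, or 157, 201 and 171 CPM, with log2 fold changes of 0.35 and 0.12 that are within 0.01 of 0 with library totals. H4C4 had 89.6, 134 and 88.1 CPM and H4C5 had 107, 94.0 and 94.3 CPM. Of these, H4C4 had a log2 fold change of 0.58 in the knockout library, and H4C5 had -0.19 in both comparisons with the wild library. H4C2 had the highest value among H4 genes in the knockout library, with 876, 4286 and 1015 counts, or 48.2, 83.5 and 42.5 CPM, a log2 fold change of 0.79 (0.69 to 0.90) and 0.44 with library totals. H4C9 was higher than in the wild library in both, with 19.9, 31.9 and 23.9 CPM, and its log2 fold changes of 0.68 and 0.27 stayed above 0 with library totals (0.33 and 0.15). Of the 13 measured H4 genes, 9 were higher in the knockout library (69.2%, against 56.7% of all genes). In the active-labelled library 4 were higher (30.8%, against 53.9% of all genes). With library totals 10 of the 13 lay below 0 in each, against 67.5% of all genes in the knockout library and 55.9% in the active-labelled one.

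H4C6 (chromosome 6 from 26240393 to 26240793, plus strand, older symbol HIST1H4F) stood apart from its class and from all other histone genes. It had 883, 903 and 155 counts, or 48.6, 17.6 and 6.49 CPM. Its level was thus 2.76-fold lower in the knockout library (log2 -1.47, -1.60 to -1.33) and 7.47-fold lower in the active-labelled library (log2 -2.90, -3.16 to -2.66). The intervals do not overlap between any 2 libraries, and how often this holds among all genes was not counted. Among histone counts alone, which no scaling affects, H4C6 took 0.587% (0.549 to 0.627), 0.232% (0.218 to 0.248) and 0.116% (0.0981 to 0.135). All of its windows of 75 bases occur once in the genome, and no annotated gene overlaps it on its strand. The letters of its stem-loop and H4 element match those of H4C2, but the bases beside the stem-loop differ. Its promoter window holds a CCAAT box 65 bases before the start and no TATAAA. That of H4C2 holds TATAAA 31 and 223 bases before the start and no CCAAT. Whether any of these features bears on the level of H4C6 was not tested. Its nearest histone neighbours on either side were H1-3 at -0.93 and, past the barely counted H4C7 (4, 0 and 0 counts), H3C7 at -0.62 in the active-labelled library, while H3C6, next beyond H1-3, lay at -1.14.

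Pairs of an H2A and an H2B gene that lie head to head share the DNA between them as a promoter. There were 12 such pairs with coding starts within 500 bases, 11 of them with both genes measured. In the active-labelled library the 2 genes of a pair differed by a median of 0.15 on the log2 scale, against 0.285 over all pairings of an H2A with an H2B gene, and in the knockout library by 0.311 against 0.307. Examples of close values are H2AC7 and H2BC7, at -0.82 and -0.74, and H2BC8 and H2AC8, at -0.56 and -0.61 in the active-labelled library. The widest gap was between H2BC21 and H2AC20, at -1.14 and -0.37. The pairings overlap in their members, so these are descriptions.

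By location, the 50 measured genes of HIST1 had medians of -0.061 in the knockout library and -0.554 in the active-labelled library, the 9 of HIST2 had 0.072 and -0.359, and the 2 of HIST3, H2AC25 and H2BC26, had 0.365 and 0.017. Within HIST1, all 16 genes of the distal group, which runs from H2BC13 to H2BC17, lay below 0 in the active-labelled library. Of all genes, 46.1% did. HIST3 was the exception to the lower level in that library: H2AC25 had 28.0, 35.2 and 27.4 CPM and H2BC26 had 27.4, 36.2 and 28.7 CPM. The 6 genes known to be polyadenylated also (H1-2, H2AC6, H2BC4, H2BC5, H2BC12 and H2BC21) had medians of -0.269 and -0.664, beside -0.015 and -0.446 for the other 55, so the lower level was seen in both kinds. By stem-loop, the 34 measured genes with the form of H1-4 had medians of -0.061 and -0.554, and the 8 with the form of H4C3 and H4C6, all H4 genes, had 0.019 and -0.184. Without the 10 genes of low uniqueness the medians over the 51 others were -0.052 and -0.546.

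The genes that make and process histone mRNA had a median above 0 in the active-labelled library (0.141), with 11 of 33 below 0 against 46.1% of all genes. SLBP, which binds the stem-loop, had 59.2, 62.7 and 48.0 CPM, with log2 fold changes of 0.081 and -0.30 (-0.43 to -0.18). NPAT, the coactivator of histone transcription at the histone locus body, had 63.4, 60.9 and 61.3 CPM with intervals that held 0 in both comparisons, and its partner CASP8AP2 had 85.7, 73.0 and 82.2 CPM. Of the U7 snRNP, which cuts the histone pre-mRNA, LSM10 had log2 fold changes of 0.14 and 0.48, LSM11 0.45 and -0.087 and the zinc finger protein ZNF473 0.15 and 0.25. The U7 snRNA gene RNU7-1 had only 13, 67 and 9 counts, with intervals that held 0 against the wild library. Like SLBP, HINFP, E2F1, CDK2 and TUT7 (-0.22) were lower in the active-labelled library with intervals wholly below 0. These were picked from a list in which 22 of 33 factors lay above 0 there. Among the latter, CPSF2 (0.18), CPSF3 (0.30), UPF1 (0.26) and CSTF2 (0.28) had intervals wholly above 0. HINFP, which reads the H4 element, had 18.4, 13.8 and 11.1 CPM, with log2 fold changes of -0.42 and -0.73 (-0.97 to -0.49). E2F1, a transcription factor of S phase entry, had 51.7, 58.7 and 33.2 CPM (0.18 and -0.64), and CDK2 had 102, 103 and 86.0 CPM (0.01 and -0.25). POU2F1, which reads the octamer, had 45.6, 32.2 and 42.8 CPM.

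Of the 33 such factors at 1 CPM or more, 3 lay above 1 in the knockout library (5.77% of all genes did) and 0 below -1 (7.56%). In the active-labelled library 1 lay above 1 (3.78%). Such small counts are not read as a result. The genes above 1 were CCNE1, the cyclin that with CDK2 phosphorylates NPAT, and the Sm proteins SNRPB and SNRPE. CCNE1 had 6.27, 15.4 and 7.41 CPM and a log2 fold change of 1.29 (1.01 to 1.59) in the knockout library. SNRPB lay at 1.09 and SNRPE at 1.30 there, and SNRPE also at 1.03 in the active-labelled library. The medians of the 33 factors were 0.181 in the knockout library and 0.141 in the active-labelled library. The 43 S phase genes of the Seurat list had medians of 0.184 and 0.073, with 34 of 43 (79.1%) and 25 of 43 (58.1%) genes above 0, against 56.7% and 53.9% of all genes, so the latter share is near that of all genes. With library totals 25 of 43 (58.1%) lay below 0 in each, against 67.5% of all genes in the knockout library and 55.9% in the active-labelled one. In the active-labelled library the replication-dependent histone genes thus lay lower than these S phase genes, by medians of -0.485 and 0.073. MKI67, a marker of cycling cells, had 943, 403 and 874 CPM.

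Histone genes outside the clusters are, in most cases, made through the cell cycle and polyadenylated, but H2AX and H4C16 carry the stem-loop. The 13 unclustered histone genes had median log2 fold changes of -0.006 in the knockout library and -0.116 in the active-labelled library. With these 2 log2 fold changes in brackets, H2AZ1 had 151, 299 and 199 CPM (0.99 and 0.40), H3-3A 95.3, 132 and 130 CPM (0.47 and 0.45), H3-3B 255, 397 and 325 CPM (0.64 and 0.35) and MACROH2A1 243, 334 and 290 CPM (0.46 and 0.25). CENPA, the centromeric H3, had 23.4, 14.1 and 10.5 CPM (-0.73 and -1.16), and its chaperone HJURP had 61.5, 27.5 and 24.5 CPM (-1.16 and -1.33). H4C16, an H4 gene on chromosome 12 with a stem-loop, had 60.2, 51.0 and 28.5 CPM (-0.24 and -1.08). The 6 genes H2AX, H2AZ2, MACROH2A2, H2AJ, H3-5 and H1-10, lay between -0.56 and 0.43 in the knockout library and between -0.80 and 0.004 in the active-labelled library. Of the 13 genes, 1 that is not reported here by name lay below -1 in the knockout library, at -1.17 (7.56% of all genes did). In the active-labelled library 2 lay below -1, CENPA and H4C16 (6.73% of all genes did). The 23 histone chaperones had medians of -0.014 and 0.125. In the knockout library MCM2 (1.08) and IPO4 (1.10) lay above 1 and HJURP below -1, against 5.77% and 7.56% of all genes. In the active-labelled library HJURP lay below -1, against 6.73% of all genes. Such small counts are not read as a result.

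**Figure D5:**
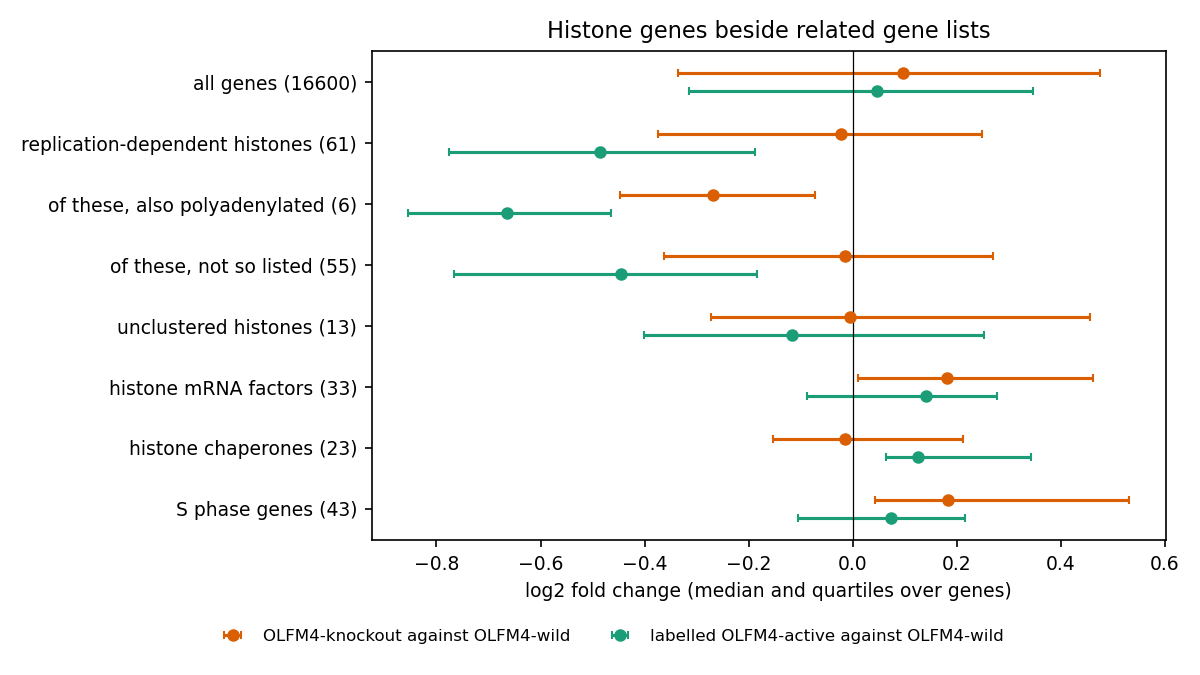
Median and quartiles of the log2 fold change (x axis) of the replication-dependent histone genes and of related gene lists against the wild library, with the number of genes at 1 CPM or more in brackets. The histone genes lie at -0.485 in the active-labelled library, whereas S phase genes lie at 0.073 and histone mRNA factors at 0.141.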

How the data were processed

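RNA of 3 RWPE1 libraries was analysed, 1 per condition. The authors deposited raw read counts per gene, not normalized: per the labels and methods, TruSeq Stranded Total RNA libraries with Ribo-Zero were trimmed with cutadapt, aligned to GRCh38 with HISAT2, and uniquely mapped, reversely stranded pairs were counted with featureCounts. Identifiers of 56948 of the 58037 rows (98.1%) were matched to GENCODE release 44, which gave symbols, positions and exon lengths. Library sizes were scaled by TMM (factors 1.11, 0.872 and 1.03) with edgeR 4.0.16. Log2 fold changes follow voom of limma 3.58.1 with an offset of 0.5 counts. Intervals are conditional Clopper-Pearson intervals at 95%. Genes averaging 1 CPM or more entered counts past a log2 fold change of 1. Other steps used R 4.3.3, Python 3.11.15, numpy 2.4.6, pandas 2.3.3, scipy 1.17.1, numba 0.67.0 and matplotlib 3.10.9. The functions were tested on simulated data.

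The text names the 3 most abundant genes of each class, the clustered histone genes past the threshold, the main histone mRNA factors and most of the unclustered histones. Some members of the lists are not reported here by name. Other genes were picked after their values were seen, and the members and lists were chosen with earlier results of these data known. Alternatives were library totals, upper quartile factors, DESeq2 1.42.0 size factors, library sizes without the 10 most abundant genes, thinning to the shallowest library, offsets of 1 and 5 counts, no filter or a filter at 10 CPM, and leaving out genes of low uniqueness.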

Additional observations from a re-analysis of the deposited data

How the results depend on the processing

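With 1 library per condition, all values compare libraries, and clone, culture and genotype cannot be told apart. No paired analysis was possible because each condition has a single library. The medians and summed counts of the histone genes kept their direction in all alternatives run, and their size depended on the scaling. Summed over the histone genes, the log2 fold change in the knockout against the wild library was -0.129, and became -0.482 with library totals, -0.387 without the 10 most abundant genes, -0.217 with upper quartile factors, -0.171 after thinning and -0.117 with DESeq2 size factors. For the active-labelled against the wild library it was -0.560, and -0.675, -0.691, -0.542, -0.574 and -0.537 in that order. For the knockout against the active-labelled library it was 0.431, and 0.193, 0.303, 0.326, 0.403 and 0.420. Median log2 fold changes moved with library totals, without the 10 most abundant genes and with upper quartile factors: to -0.375, -0.280 and -0.110 from -0.022 for the knockout against the wild library, and to 0.242, 0.353 and 0.375 from 0.480 for the knockout against the active-labelled one. For the active-labelled against the wild library the median of -0.485 moved to -0.600 and -0.616 under the first 2. The number of genes below -1 there was 4, and 9 with library totals and 10 without the most abundant genes. Without a filter on low values, 1 gene instead of 0 lay above 1 in each comparison with the wild library, 2 instead of 1 below -1 in the knockout against the wild library, and 2 instead of 1 above 1 in the knockout against the active-labelled library, where thinning also gave 2. The extra genes without a filter had at most 13 counts. The other 84 values stayed close: numbers of genes within 1.5 times the value given, and medians within the typical counting error of a gene, taken as the median distance from the middle of its interval to either end (0.07, 0.088 and 0.073 for the comparisons in the order above).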
